A study of Mus musculus with 6 samples.

Results

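The nuclear receptors described here are 32 genes of mouse granulosa cells (GCs), the somatic cells that surround and feed the oocyte. They were chosen by name. They comprise the retinoid X receptors (RXRs) and their partners, the corticosteroid receptors, the COUP-TFs, the oestrogen-related receptors and other families, and they leave out the NR4A group, the sex steroid receptors and NR5A. All 32 were found among the 54532 genes of the deposited RNA-seq table. The samples came from female ICR mice aged 3 weeks that had received 5 IU of pregnant mare serum gonadotropin (PMSG), which drives follicle growth, and 22 h later an intraperitoneal injection. The PBS group received phosphate-buffered saline and the CTX group received 120 mg/kg of cyclophosphamide (CTX), an alkylating chemotherapy drug. GCs were collected 6 h after injection. Each group had 3 samples and each sample pooled the GCs of 3 mice, so both groups share PMSG priming and no untreated or unprimed mouse was compared.

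Nuclear receptors are transcription factors with a DNA-binding domain of zinc fingers and a ligand-binding domain that takes up small lipophilic molecules such as retinoic acid, thyroid hormone, glucocorticoids, oxysterols or fatty acids. Many bind DNA as a dimer with an RXR, and ligand switches them from corepressor complexes to coactivator complexes. In GCs, members of this superfamily are known for their part in steroidogenesis, lipid handling and the response to hormones, and the atypical members *Nr0b1* (DAX1) and *Nr0b2* (SHP) lack the usual DNA-binding domain and act by binding to other receptors.

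The samples held 16005869 to 17790353 reads on genes in the PBS group and 17727770 to 18455011 in the CTX group, and 3 reads on a gene of 1 kb correspond to 0.164 to 0.185 FPKM (fragments per kilobase of gene and per unit of sequencing depth). CTX replicate 2 stood apart from the other samples, at 74.7 on the first principal component (46.8% of the variance), where the other samples lay between −26.6 and 13.2. Values without it are therefore given beside the results that it moved most. The 12 granulosa markers summed to 13876 to 15205 FPKM in the PBS samples and 11907 to 12818 FPKM in the CTX samples, and 8 of them were lower in every CTX sample than in every PBS sample, *Foxl2* and *Fshr* among them, while *Amh* was higher in every CTX sample. Markers of other cell types were detected at lower sums. The 12 theca and stroma markers came to 69.8 to 72.9 FPKM in the PBS group and 40.4 to 100.03 FPKM in the CTX group, with the lowest value in CTX replicate 2, and 1 of them, *Acta2*, rose (adjusted p = 0.0166). The 10 immune markers came to 24.2 to 26.9 FPKM in the PBS group and 27.9 to 73.8 FPKM in the CTX group, with the highest value in CTX replicate 2. The 8 endothelial markers came to 7.09 to 7.37 FPKM and 3.08 to 6.16 FPKM, and the 10 oocyte markers to 37.7 to 82.0 FPKM and 54.1 to 94.0 FPKM, in the PBS and CTX groups respectively. No marker of the other lists passed adjusted p. No marker was at 0 in all samples, and 4 of the 10 immune and 5 of the 8 endothelial markers stayed under 1 FPKM throughout. The part of these cell types in the receptor values was not tested, and in bulk samples fewer cells of a type and less RNA per cell cannot be told apart.

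By their mean level in the PBS group, 6 of the 32 members were above 10 FPKM, 13 lay between 1 and 10 FPKM and 13 were under 1 FPKM. None of them passed the test of CTX against PBS. Of the 32 members, 23 reached a mean of 0.5 FPKM and were tested with limma on log2(FPKM + 0.1), and 0 of them had an adjusted p under 0.05, beside 1.76% of the 14463 genes tested (1.40% higher and 0.360% lower in the CTX group). None was a differentially expressed gene (DEG, adjusted p under 0.05 and more than 2-fold), beside 0.961% of all genes. At an unadjusted p under 0.05 there were 6 members (26.1%, against 19.6% of all genes), namely *Esrra*, *Thra*, *Rarg*, *Nr3c1*, *Rxra* and *Nr0b2*, and limma's voom on the reads also gave 0 members past adjusted p and 6 at unadjusted p. The smallest adjusted p was 0.0851, for *Esrra*. In 8 of the 23 members (34.8%) each CTX sample exceeded each PBS sample, beside 15.0% of all genes, and in 2 members (8.7%) each CTX sample was under each PBS sample, beside 14.1%. The 8 were *Esrra*, *Thra*, *Rarg*, *Nr3c1*, *Rxra*, *Rxrb*, *Nr2f2* and *Nr2f6*, and the 2 were *Nr0b2* and *Ppara*. *Rxrb* and *Nr2f6* were separated by narrow gaps and overlapped when samples were scaled to their totals, which left 6 members above, beside 12.4% of all genes. The median log2 fold change was 0.11 over the 23 members and −0.01 over all genes tested, and the median size of the change was 0.28 and 0.18.

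**Figure D1:**
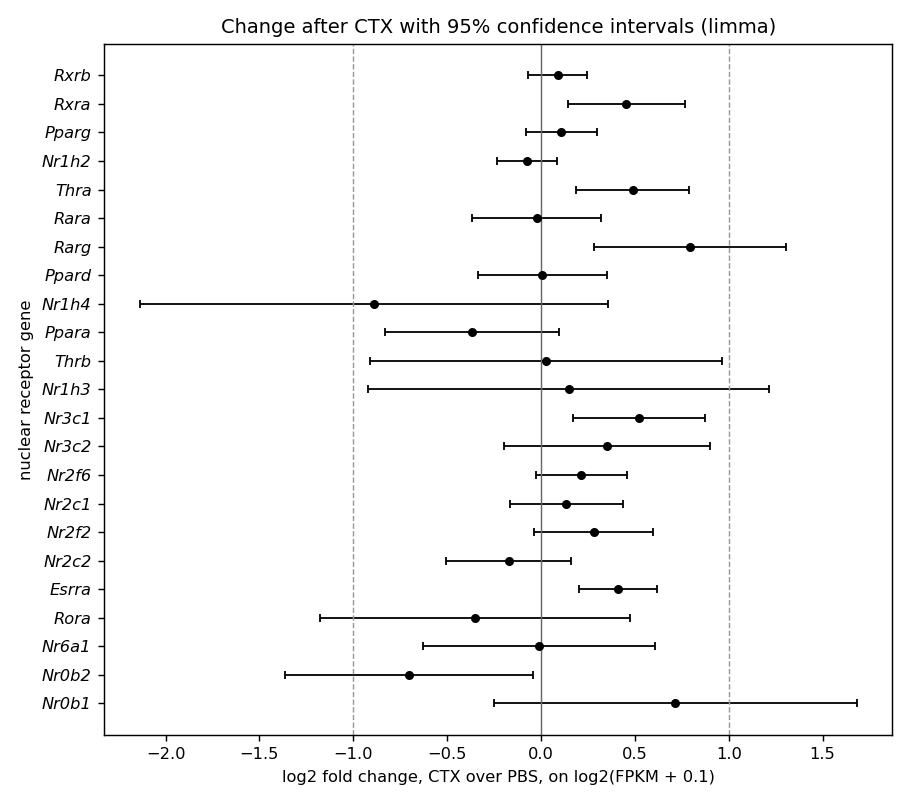
log2 fold change of CTX over PBS (x axis, on the log2(FPKM + 0.1) scale) for the 23 tested nuclear receptors, as points with 95% confidence intervals from limma, 3 samples per group. Dashed lines mark a 2-fold change of FPKM + 0.1. The interval of 17 members lies within the dashed lines, and those of *Rarg*, *Nr1h4*, *Nr1h3*, *Rora*, *Nr0b2* and *Nr0b1* cross one of them.

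The intervals set how large a change the data leave room for. A 2-fold change of FPKM + 0.1 in either direction lay outside the 95% confidence interval of 17 of the 23 members. In low genes a 2-fold change of FPKM itself is smaller on this scale, so the count need not hold for FPKM. The interval of *Thrb*, a low gene, was −0.91 to 0.96 and came near the limit. The 6 whose interval reached a 2-fold change of FPKM + 0.1 were *Rarg*, *Nr0b1* and *Nr1h3* on the higher side and *Nr1h4*, *Nr0b2* and *Rora* on the lower side. These 6 are also the members in which CTX replicate 2 deviated from the PBS mean by more than 1 on the log2 scale, which CTX replicates 1 and 3 did in 0 members.

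Promoter sequence is shown for 4 members whose values the results below turn on, *Rarg*, *Rxra*, *Esrra* and *Nr0b1*, so that the letters upstream of their start sites can be read beside their levels. The sequences are those of RefSeq on GRCm38.p6, which has an entry for 30 of the 32 members (49 start sites), and they run 5′ to 3′ on the gene's strand from 250 bases upstream towards the start, with annotated exon bases left out. Capitals mark AGGTCA, the core motif that many nuclear receptors bind, and GGGCGG, the GC box, on either strand (TGACCT and CCGCCC on the opposite strand). The *Rarg* window is chr15:102257523-102257772 on the minus strand, ahead of the upstream of its start sites, and the window ahead of the other one (chr15:102246501-102246750) held neither motif. That of *Rxra* is chr2:27709042-27709291 on the plus strand, ahead of the downstream of its start sites. The *Rxra* window ahead of the upstream one (chr2:27676951-27677200) held GC boxes 139, 117 and 38 bases upstream and no AGGTCA. The window of *Esrra* is chr19:6921814-6922058 on the minus strand and that of *Nr0b1* is chrX:86191525-86191763 on the plus strand.
Rarg: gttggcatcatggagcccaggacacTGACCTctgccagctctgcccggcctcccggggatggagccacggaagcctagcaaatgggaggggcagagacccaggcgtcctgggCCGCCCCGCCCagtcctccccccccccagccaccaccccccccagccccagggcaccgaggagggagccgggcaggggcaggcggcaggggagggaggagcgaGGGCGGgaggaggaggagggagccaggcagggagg
Rxra: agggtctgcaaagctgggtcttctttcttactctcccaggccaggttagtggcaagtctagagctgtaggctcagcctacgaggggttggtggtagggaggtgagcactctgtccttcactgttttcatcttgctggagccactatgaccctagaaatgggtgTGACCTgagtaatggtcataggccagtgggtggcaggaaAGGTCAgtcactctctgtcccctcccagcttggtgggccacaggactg
Esrra: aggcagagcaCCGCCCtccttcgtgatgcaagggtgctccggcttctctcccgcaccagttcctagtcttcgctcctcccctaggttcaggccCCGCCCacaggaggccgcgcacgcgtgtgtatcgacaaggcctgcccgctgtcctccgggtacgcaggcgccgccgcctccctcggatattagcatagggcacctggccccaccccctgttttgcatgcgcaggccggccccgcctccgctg
Nr0b1: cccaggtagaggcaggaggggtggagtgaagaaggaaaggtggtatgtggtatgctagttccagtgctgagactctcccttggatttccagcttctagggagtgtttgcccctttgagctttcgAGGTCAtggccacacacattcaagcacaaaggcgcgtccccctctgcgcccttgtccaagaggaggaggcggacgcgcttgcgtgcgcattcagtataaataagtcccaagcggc
The *Rarg* window held AGGTCA on the opposite strand 225 bases upstream of the start and GC boxes on both strands, of which those at 138 and 133 bases upstream overlap by a shared base. The *Rxra* window held AGGTCA 48 bases upstream on the same strand and 87 bases upstream on the opposite strand, and the *Nr0b1* window held it 126 bases upstream. The *Esrra* window held GC boxes 240 and 157 bases upstream and no AGGTCA. Over the 250 bases upstream, AGGTCA was found in 9 of the 49 windows of members (18.4%), in 8 genes, and in 14.0% of 32851 promoters of the same length. GGGCGG was found in 23 of the 49 windows (46.9%) and in 32.7% of all promoters. The longer TCAAGGTCA, which contains AGGTCA and is the motif known for the oestrogen-related receptors, was in 0 of the 49 windows and in 0.387% of all promoters.

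**Figure D2:**
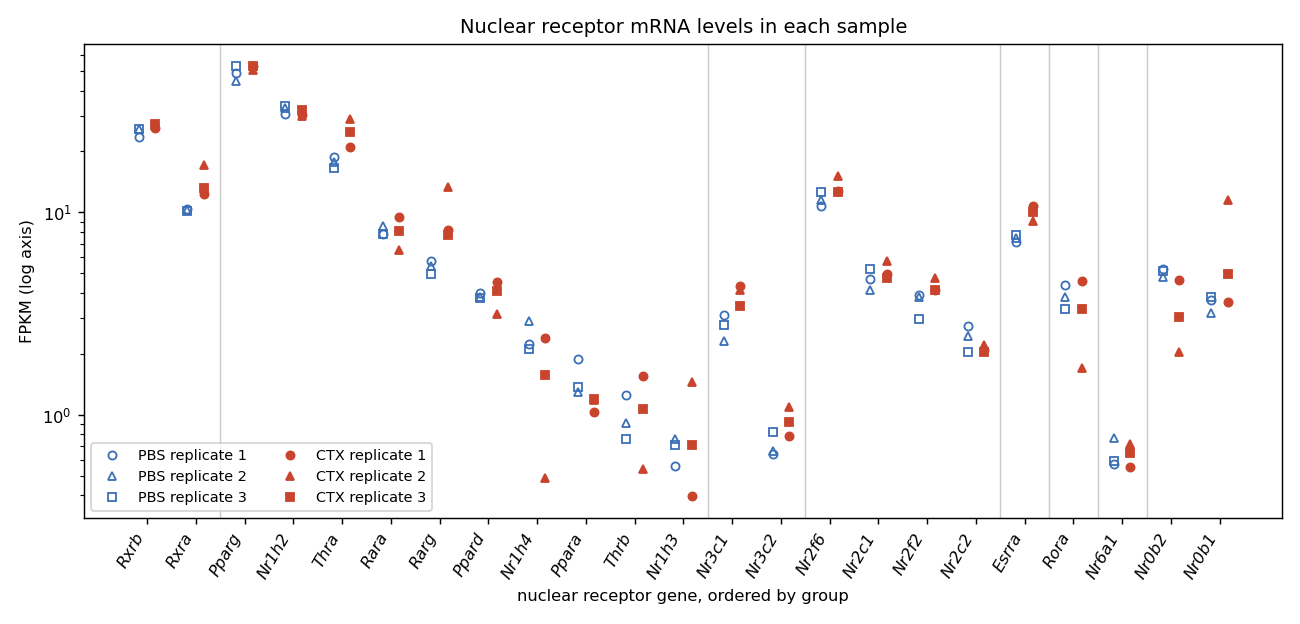
FPKM (log axis) of the 23 tested nuclear receptors in each of the 6 samples, with PBS as open blue and CTX as filled red symbols and 1 symbol shape per replicate number, ordered by receptor group and, within it, by level. *Pparg* and *Nr1h2* lie above 30 FPKM in every sample, and the red triangles of CTX replicate 2 lie apart from the other CTX samples in *Nr1h4*, *Rora*, *Rarg* and *Nr0b1*.

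The RXRs are the shared partners of the lipid and hormone receptors, and both tested RXRs were higher in every CTX sample. *Rxra* (RXR alpha, chr2:27676440-27762957, GRCm38) was at 10.4, 10.3 and 10.1 FPKM in PBS replicates 1, 2 and 3 and at 12.4, 17.2 and 13.2 FPKM in CTX replicates 1, 2 and 3. The groups did not overlap and CTX replicate 2 was the highest sample. The mean was 10.3 ± 0.104 FPKM (SD, n = 3) in the PBS group and 14.3 ± 2.59 FPKM (SD, n = 3) in the CTX group, a log2 fold change of 0.46 ± 0.13 (SE) with a limma adjusted p of 0.150, and 0.31 without CTX replicate 2. *Rxrb* (RXR beta) was the more abundant, at 23.7, 25.9 and 25.8 FPKM against 26.0, 26.7 and 27.4 FPKM. Its groups were separated by less than the spread of the PBS samples, and the log2 fold change was 0.09 ± 0.07 (SE). *Rxrg* (RXR gamma) had 0 to 4 reads in each sample and was not tested. As a share of the summed FPKM of the RXRs, *Rxra* took 30.4%, 28.4% and 28.3% in PBS replicates 1, 2 and 3, against 32.3%, 39.2% and 32.5% in CTX replicates 1, 2 and 3.

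Among the retinoic acid receptors (RARs), which bind DNA with an RXR, *Rarg* had the largest log2 fold change on the higher side of all members tested. *Rarg* (RAR gamma, chr15:102234938-102257517, the gene whose upstream sequence heads the list above) was at 5.78, 5.45 and 4.98 FPKM in the PBS samples and at 8.15, 13.3 and 7.72 FPKM in CTX replicates 1, 2 and 3. Every CTX sample was above every PBS sample, and CTX replicate 2 was the highest. The means were 5.41 ± 0.401 and 9.73 ± 3.12 FPKM (SD, n = 3 each), a 1.73-fold difference in the fit (log2 0.79, 95% confidence interval 0.28 to 1.31, limma adjusted p = 0.137). Without CTX replicate 2 the difference was smaller and passed the test, at log2 0.55 and an adjusted p of 0.0346. *Rara* (RAR alpha) was at 7.87, 8.53 and 7.82 FPKM against 9.52, 6.51 and 8.06 FPKM, and the CTX samples lay on both sides of the PBS samples. *Rarb* (RAR beta), itself a known retinoic acid target, had 5 to 14 reads in the PBS samples and 0 to 4 after CTX treatment, with 34.1% of its exon bases shared with *Top2b* on the opposite strand. The share of *Rarg* among the summed RARs was 42.1%, 38.6% and 38.7% under PBS, against 46.0%, 67.2% and 48.9% in CTX replicates 1, 2 and 3, and *Rarg* exceeded *Rara* in CTX replicate 2 alone, with *Rara* the more abundant in the other 5 samples. The summed RARs came to 13.6 ± 0.647 FPKM and 17.8 ± 2.03 FPKM (SD, n = 3 each).

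**Figure D3:**
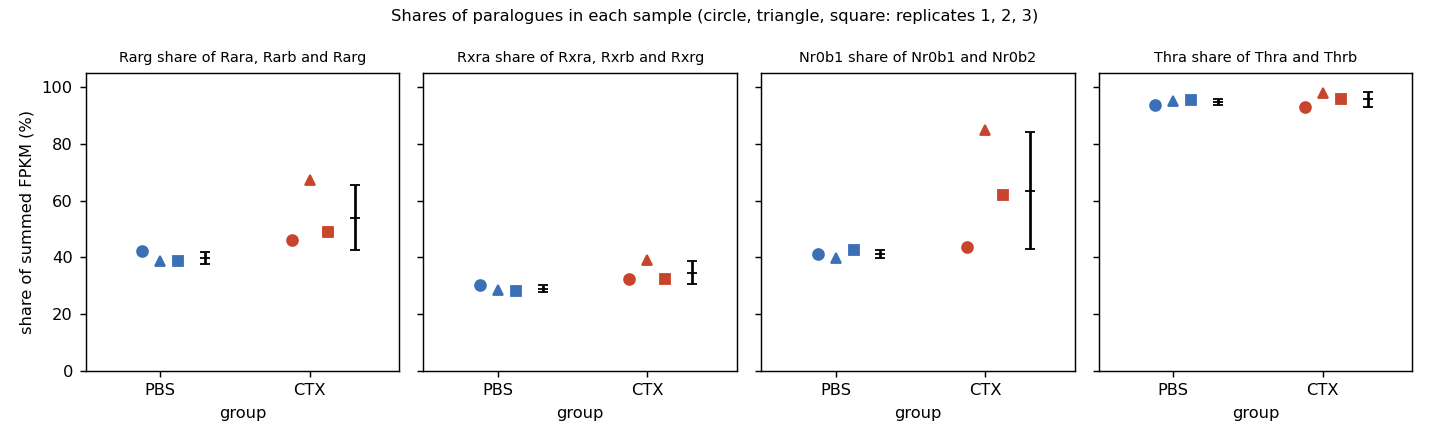
Share of each named gene in the summed FPKM of its paralogues (y axis, %) in each PBS (blue) and CTX (red) sample, with black bars for the mean ± SD of 3 samples. The share of *Rarg* lay between 38.6% and 42.1% in the PBS samples and between 46.0% and 67.2% in the CTX samples, and that of *Thra* overlapped between groups.

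The thyroid hormone receptors also pair with an RXR. *Thra* (chr11:98740638-98769006) was at 18.8, 17.7 and 16.5 FPKM in the PBS samples and at 21.1, 29.0 and 25.0 FPKM in the CTX samples. The groups did not overlap, and CTX replicate 2 was again the highest. The means were 17.7 ± 1.15 and 25.0 ± 3.96 FPKM (SD, n = 3 each), with a log2 fold change of 0.49 ± 0.13 (SE) and a limma adjusted p of 0.129. Without CTX replicate 1 it passed the test (log2 0.60, adjusted p = 0.0471), and without CTX replicate 2 it was 0.38. *Thra* shares 263 exon bases (5.70% of its exon length) with *Nr1d1* (REV-ERB alpha, a clock repressor) on the opposite strand, and *Nr1d1* was at 7.95 to 11.6 FPKM in the PBS samples and at 18.0 to 33.6 FPKM in the CTX samples. The library kit does not mark strand, so reads of that stretch cannot be told apart. The strand setting of the counting is not given in the sources used here. *Thrb* was at 1.25, 0.914 and 0.759 FPKM against 1.55, 0.541 and 1.07 FPKM, with overlapping groups, and its log2 fold change of 0.02 was 0.40 without CTX replicate 2. *Vdr*, the vitamin D receptor, had 8 to 25 reads per sample and was not tested.

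The lipid-sensing receptors included the most abundant members of the group, with small differences between the groups. *Pparg* (PPAR gamma, the receptor of fatty acids and thiazolidinediones) was at 48.6, 44.5 and 52.6 FPKM in the PBS samples and at 53.1, 50.7 and 53.2 FPKM in the CTX samples. The groups overlapped, and the log2 fold change of 0.11 had a 95% confidence interval of −0.08 to 0.30. *Nr1h2* (LXR beta, an oxysterol receptor) was at 30.7, 32.9 and 33.7 FPKM against 30.2, 30.05 and 32.1 FPKM, an overlap as well, with an interval of −0.24 to 0.08. *Ppard* was at 3.80 to 3.98 FPKM in the PBS samples and at 4.55, 3.17 and 4.08 FPKM in the CTX samples, which lay on both sides. *Ppara*, known for its control of fatty acid oxidation in liver, was at 1.89, 1.29 and 1.37 FPKM against 1.04, 1.19 and 1.19 FPKM. Its CTX samples all lay below the PBS samples, but the gap was narrow and the log2 fold change of −0.37 ± 0.19 (SE) had an adjusted p of 0.333 and was −0.21 without PBS replicate 1. *Nr1h3* (LXR alpha) was at 0.558, 0.759 and 0.712 FPKM against 0.395, 1.46 and 0.710 FPKM, from 18 to 65 reads, and CTX replicates 1 and 2 were its extremes, so that the log2 fold change of 0.15 became −0.28 without CTX replicate 2. *Nr1h4* (FXR, the bile acid receptor) was at 2.24, 2.91 and 2.12 FPKM in the PBS samples and at 2.40, 0.489 and 1.58 FPKM in the CTX samples. It had the largest log2 fold change in size, −0.89 with a 95% confidence interval of −2.14 to 0.36. CTX replicate 1 lay among the PBS samples and CTX replicate 2, with 20 reads, was the lowest, and without CTX replicate 2 the value was −0.29.

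The atypical receptors differed in the same sample in opposite directions. *Nr0b1* (DAX1, a repressor of steroidogenic genes, chrX:86191764-86195947) was at 3.69, 3.20 and 3.82 FPKM in the PBS samples and at 3.60, 11.5 and 4.97 FPKM in CTX replicates 1, 2 and 3. CTX replicate 1 lay among the PBS samples and CTX replicate 2 was above all others, from 368 reads against 106 to 161 in the other samples. The log2 fold change of 0.72 had a 95% confidence interval of −0.25 to 1.68 and was 0.24 without CTX replicate 2. *Nr0b2* (SHP, in liver a known target of the bile acid receptor FXR, chr4:133553376-133556536) was at 5.25, 4.82 and 5.13 FPKM against 4.63, 2.04 and 3.06 FPKM. All its CTX samples lay below the PBS samples and CTX replicate 2 was the lowest. The means were 5.07 ± 0.224 and 3.24 ± 1.30 FPKM (SD, n = 3 each), with a log2 fold change of −0.70 ± 0.27 (SE) and a limma adjusted p of 0.237, and −0.42 without CTX replicate 2. The share of *Nr0b1* in the sum of both was 41.3%, 39.9% and 42.7% under PBS, against 43.7%, 84.9% and 61.9% in CTX replicates 1, 2 and 3. For these shares an exact two-sided permutation test of 3 samples against 3 cannot give a p under 0.1, so they are given as values with no test.

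**Figure D4:**
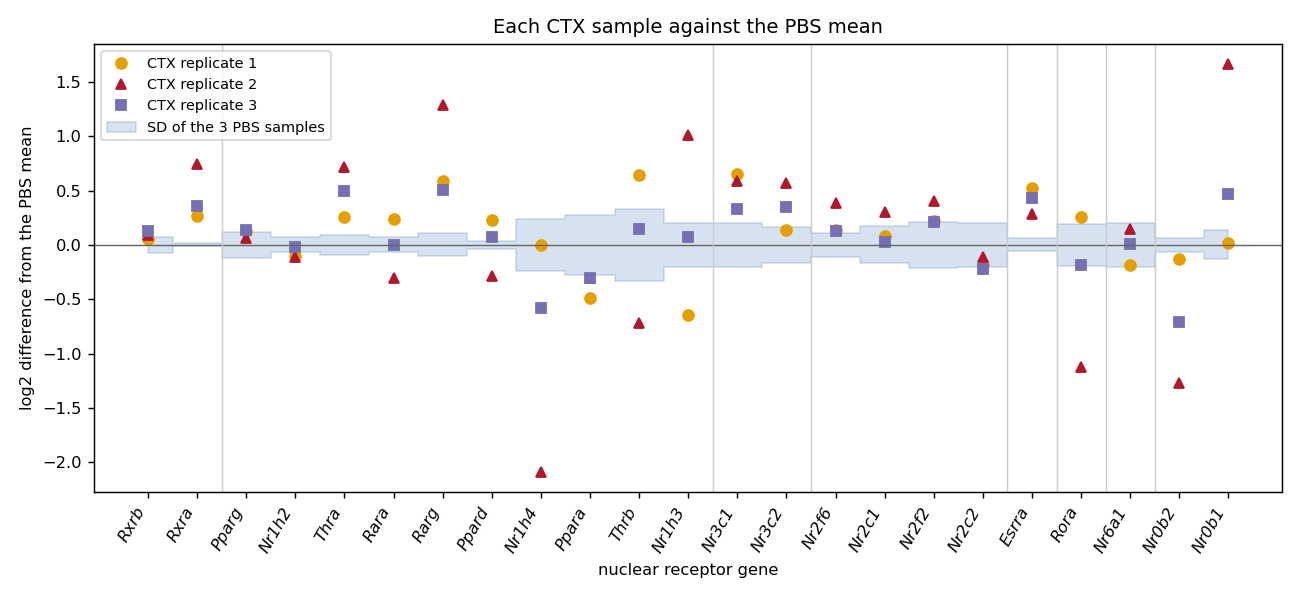
Difference of each CTX sample from the PBS mean (y axis, on the log2(FPKM + 0.1) scale) for the 23 tested nuclear receptors, with the SD of the 3 PBS samples as a blue band. CTX replicate 2 (red triangles) lies more than 1 from the PBS mean in 6 members, among them *Nr1h4*, *Nr0b1* and *Nr0b2*, while CTX replicates 1 and 3 do so in none.

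In *Esrra* and *Nr3c1*, unlike in *Rarg*, *Rxra* and *Thra*, CTX replicate 2 was not the highest sample. *Esrra* (ERR alpha, an orphan receptor known for the control of mitochondrial genes, chr19:6910977-6921813) was at 7.14, 7.43 and 7.76 FPKM in the PBS samples and at 10.7, 9.06 and 10.05 FPKM in CTX replicates 1, 2 and 3. Every CTX sample was above every PBS sample, with CTX replicate 2 the lowest of them. The means were 7.44 ± 0.309 and 9.94 ± 0.834 FPKM (SD, n = 3 each), a 1.33-fold difference in the fit (log2 0.41, 95% confidence interval 0.20 to 0.62, limma adjusted p = 0.0851), and log2 0.47 with an adjusted p of 0.0301 without CTX replicate 2. *Esrra* shares 73 exon bases with *Trmt112* on the opposite strand, 1.66% of its 4387 exon bases in GENCODE M21. *Esrra* has a length of 2539 bases in the deposited values, so the exon set behind its FPKM differs from this one. Its paralogues *Esrrb* and *Esrrg* had 5 to 32 and 2 to 6 reads per sample and were not tested. *Nr3c1*, the glucocorticoid receptor, was at 3.11, 2.32 and 2.77 FPKM in the PBS samples and at 4.31, 4.11 and 3.44 FPKM in the CTX samples. The groups did not overlap and CTX replicate 1 was the highest sample. The means were 2.73 ± 0.394 and 3.95 ± 0.459 FPKM (SD, n = 3 each), with a log2 fold change of 0.52 ± 0.15 (SE) and a limma adjusted p of 0.150, and 0.49 without CTX replicate 2. *Nr3c2*, the mineralocorticoid receptor, was at 0.641, 0.666 and 0.820 FPKM against 0.784, 1.10 and 0.923 FPKM, and its groups overlapped.

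The remaining orphan receptors showed smaller differences. *Nr2f2* (COUP-TFII) was at 3.90, 3.81 and 2.98 FPKM in the PBS samples and at 4.15, 4.72 and 4.12 FPKM in the CTX samples, and *Nr2f6* (EAR2) at 10.8, 11.5 and 12.6 FPKM against 12.8, 15.2 and 12.7 FPKM. Neither pair of groups overlapped, and the log2 fold changes were 0.28 and 0.21. The value of *Nr2f2* was 0.16 without PBS replicate 3, and that of *Nr2f6* was 0.13 without CTX replicate 2. Of the exon bases of *Nr2f6*, 54.4% are shared with *Ocel1* on the opposite strand, which was at 2.40 to 2.76 FPKM in every sample. The testicular receptors *Nr2c1* and *Nr2c2* had overlapping groups, with log2 fold changes of 0.14 (0.05 without CTX replicate 2) and −0.17 (−0.08 without PBS replicate 1), and 30.7% of the exon bases of *Nr2c2* are shared with *Mrps25* on the opposite strand. *Rora*, an orphan receptor tied to the circadian clock, was at 4.39, 3.82 and 3.33 FPKM against 4.57, 1.70 and 3.34 FPKM. CTX replicate 2 alone was below the PBS samples, and the log2 fold change went from −0.35 to 0.03 without it. *Nr6a1* (GCNF, known as a germ cell receptor) was at 0.551 to 0.771 FPKM in all samples. *Nr2f1*, *Nr2e3*, *Rorb* and *Hnf4a* were not tested, with at most 6, 3, 6 and 14 reads in a sample. The COUP-TFs summed to 15.2 ± 0.4003 FPKM in the PBS group and 17.9 ± 1.74 FPKM in the CTX group (SD, n = 3 each).

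The spread within the CTX group was wider than within the PBS group. The SD on the log2 scale exceeded that of the PBS samples in 14 of the 23 members (60.9%), beside 69.4% of all genes tested, and its median over the members was 0.133 in the PBS group and 0.219 in the CTX group. CTX replicate 2 was the CTX sample farthest from the mean of the other CTX samples in 16 members (69.6%), beside 49.1% of all genes. CTX replicate 1 was the farthest in 5 members (21.7%, beside 31.2% of all genes) and CTX replicate 3 in 2 (8.7%, beside 19.7%).

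None of the tested cofactors through which nuclear receptors act passed adjusted p, beside 1.76% of all genes tested. In lists this short, 0 calls do not set them apart from other genes. Of the coactivators, 14 of 15 were tested, 0 passed adjusted p in either direction and 1 reached an unadjusted p under 0.05, beside 19.6% of all genes tested. Their median log2 fold change was 0.07, and the 2 largest in size were *Ncoa7* at −0.32, which turned to 0.04 without CTX replicate 2, and *Ncoa2* (a p160 coactivator) at 0.27. Of the corepressors, 10 of 12 were tested, 0 passed and 2 reached an unadjusted p under 0.05, against the same 19.6%, with a median of 0.04. *Lcor*, a ligand-dependent corepressor, had a log2 fold change of 0.33, which was 0.16 without PBS replicate 3. limma's voom likewise called none of these cofactors, beside 1.84% of all genes.

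**Figure D5:**
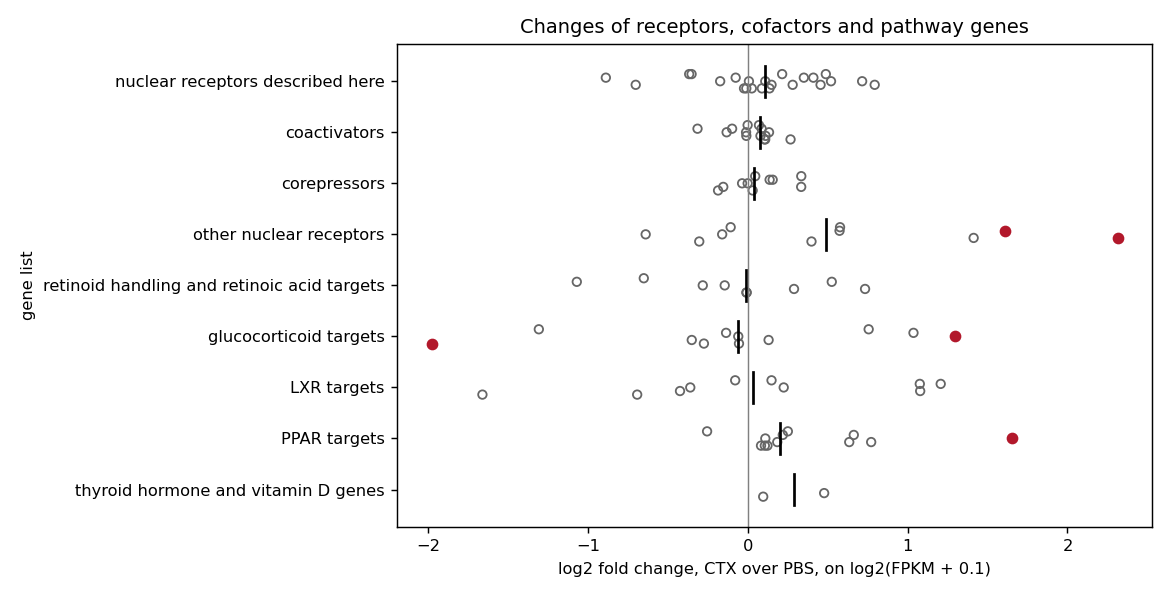
log2 fold change of CTX over PBS (x axis, on the log2(FPKM + 0.1) scale) of each tested gene of the nuclear receptors described here and of 8 lists, as points, with filled red points for adjusted p under 0.05 and a black bar for the median. No receptor described here and no cofactor is filled, while *Nr4a1*, *Nr4a2*, *Klf9*, *Mt2* and *Pdk4* are.

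Calls were made among the other nuclear receptors. Of 17 other nuclear receptors, 10 were tested, and 2 rose and 0 fell at adjusted p under 0.05, beside 1.40% and 0.360% of all genes tested. At an unadjusted p under 0.05 there were 5, beside 19.6%, and in 5 each CTX sample exceeded each PBS sample, beside 15.0%. Their median log2 fold change was 0.49. *Nr4a1* (NUR77, an immediate-early orphan receptor) rose from 40.0, 43.3 and 34.4 FPKM to 185, 166 and 241 FPKM, a log2 fold change of 2.32 with an adjusted p of 0.0019. The largest value on the higher side among the members described here was 0.79. *Nr4a2* rose by log2 1.61 (adjusted p = 0.0158), a call lost without any of the PBS samples or without CTX replicate 3.

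Among 11 tested glucocorticoid target genes of 12, 1 rose and 1 fell at adjusted p under 0.05, beside 1.40% and 0.360% of all genes tested. At an unadjusted p under 0.05 there were 5, beside 19.6%, and the median log2 fold change was −0.06. *Klf9*, a known target of glucocorticoid and thyroid hormone receptors, rose from 3.50 to 4.25 FPKM in the PBS samples to 9.71 to 10.01 FPKM in the CTX samples (log2 1.30, adjusted p = 0.0025). *Mt2*, a metallothionein, fell by 1.98 on the log2 scale (adjusted p = 0.0420) from 1.26 to 1.67 FPKM to 0.190 to 0.469 FPKM. The call of *Mt2* was lost without any of the PBS samples or without CTX replicate 3. It was also lost with a pseudocount of 0.01, no filter, quantile normalization, voom or the replicate number as a block. In CTX replicate 3 *Mt2* was at 0.190 FPKM, near the 0.167 FPKM that 3 reads on a gene of 1 kb make there. Without CTX replicate 2 the list had 4 calls, with 3.65% of all genes past adjusted p.

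Of the PPAR targets, 12 of 15 were tested, and 1 rose and 0 fell at adjusted p under 0.05, beside 1.40% and 0.360% of all genes tested. At an unadjusted p under 0.05 there were 4, beside 19.6%, and the median log2 fold change was 0.20. *Pdk4*, which restrains pyruvate entry into the mitochondrial cycle, rose from 6.10, 5.76 and 4.91 FPKM to 13.2, 23.6 and 18.0 FPKM (log2 1.66, adjusted p = 0.0211). CTX replicate 2 was its highest sample, and the call was lost without any of the PBS samples or without CTX replicate 3.

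None of the 10 tested LXR targets of 12 passed adjusted p, beside 1.76% of all genes tested. An unadjusted p under 0.05 was reached by 6, beside 19.6%. They went in both directions. Each CTX sample exceeded each PBS sample in 3 of the 10 and lay under it in 3, beside 15.0% and 14.1% of all genes tested. *Scd1*, a fatty acid desaturase, was at 10.6 to 13.0 FPKM in the PBS samples and at 10.7, 0.734 and 5.47 FPKM in the CTX samples (log2 −1.66, and −0.59 without CTX replicate 2), and *Pltp*, a phospholipid transfer protein, was at 0.277 to 0.554 FPKM and at 0.697 to 1.54 FPKM (log2 1.21). The list holds *Nr1h3*, itself a member. voom called none of its genes, beside 1.84% of all genes. When CTX replicate 1 was left out 1 passed (*Lpcat3*), with 3.05% of all genes, and without CTX replicate 2 also 1 (*Apoe*), with 3.65%.

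Of the genes for retinoid handling and retinoic acid targets, 9 of 16 were tested and 0 passed adjusted p, beside 1.76% of all genes tested. An unadjusted p under 0.05 was reached by 4, beside 19.6%, and the median log2 fold change was −0.01. *Aldh1a1*, a retinaldehyde dehydrogenase that makes retinoic acid, was at 7.57, 8.08 and 8.73 FPKM against 11.95, 17.8 and 11.7 FPKM (log2 0.73), and its relative *Aldh1a3* was at 0.547, 1.26 and 0.923 FPKM against 0.406, 0.305 and 0.375 FPKM (log2 −1.07). Without CTX replicate 1, 2 genes passed (*Dhrs3* and *Stra6*), and without CTX replicate 2, 1 did (*Aldh1a1*). In these fits 3.05% and 3.65% of all genes passed. voom called 0, beside 1.84% of all genes. Of 12 genes of thyroid hormone and vitamin D handling only 2 were tested, among them the transporter *Slc16a10* with a log2 fold change of 0.48 (0.06 without CTX replicate 2). Of these 2, 0 passed adjusted p by limma or voom, beside 1.76% and 1.84% of all genes. By limma 0 reached an unadjusted p under 0.05, beside 19.6%.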

How the data were processed

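RNA-seq of GCs was done on 3 PBS and 3 CTX samples, grouped by their titles, with no batch or date given. Per the labels the library kit was NEBNext Ultra, which does not mark strand. The submitters' processing notes name CASAVA 1.8, fastp, HISAT2 2.0.5, featureCounts 1.5.0-p3 and the mm10 build (GRCm38). The authors deposited FPKM values per gene. Further deposited columns give a mean signal per group, a log2 fold change and p-values from the authors' own comparison, and none of these was used. 0 per-sample columns were left unused. Multiplied by gene length, 100% of positive FPKM values were whole multiples of 1 read (within 0.01 of a read). The reads behind each value were rebuilt from this, and reads per sample are given with the results. Intervals and floors based on reads cover counting error only.

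log2(FPKM + 0.1) of genes with a mean of at least 0.5 FPKM was compared with limma 3.58.1 (lmFit, eBayes with trend) in R 4.3.3, with Benjamini-Hochberg adjustment over all 14463 genes tested. The fit was also run on simulated reads in which both groups had a spread taken from the PBS samples. The wider spread of the CTX samples was left out, so the simulation cannot show how the fit does with it. Fold changes on the log2(FPKM + 0.1) scale understate the change of low genes. p-values measure the spread between these pooled samples. Python 3.11.15 (pandas 2.3.3, NumPy 2.4.6) served for tables and matplotlib 3.10.9 for figures. All 32 receptors are named. In each gene list every gene past adjusted p is named up to 3, and otherwise the 2 with the largest change (2 genes that this rule names are not reported here), and genes called only when a sample was left out, together with *Ocel1*, *Mrps25*, *Top2b*, *Trmt112*, *Nr1d1*, *Acta2*, *Amh*, *Foxl2* and *Fshr*, were named after their values were seen. The receptors and lists were chosen with earlier results of these data known. Exon overlaps came from GENCODE M21 on GRCm38.

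Samples with the same replicate number held different mice, and their deviations from the group means correlated at 0.0058 to 0.0556, so the numbers were not used as a block. Alternatives were pseudocounts of 1 and 0.01, no filter, a mean of at least 5 FPKM, quantile normalization, scaling to sample totals, the replicate block, arrayWeights, eBayes without trend, voom on the rebuilt reads, and each sample left out in turn. Promoters of *Thra* and *Nr3c1* and protein sequences were not analysed here, nor were CUT&Tag, RT-qPCR or blots.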

Additional observations from a re-analysis of the deposited data

How the results depend on the processing

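Under 16 alternatives, 17 of the 23 tested receptors kept the direction of their log2 fold change. The other 6 had small changes or rested on a sample. Leaving out each sample in turn gave −0.28 to 0.54 for *Nr1h3*, −0.15 to 0.12 for *Rara*, −0.10 to 0.15 for *Ppard*, −0.29 to 0.40 for *Thrb*, −0.088 to 0.11 for *Nr6a1* and −0.65 to 0.032 for *Rora*. Quantile normalization gave 0.10 for *Nr6a1*, scaling to sample totals gave −0.024 for *Ppard* and −0.0040 for *Thrb*, and voom gave −0.025 for *Ppard* and −0.018 for *Thrb*. The receptors past adjusted p numbered 0 in 13 alternatives, 1 without CTX replicate 1 (*Thra*, with 3.05% of all genes past adjusted p), 2 without CTX replicate 2 (*Esrra* and *Rarg*, 3.65%) and 9 with arrayWeights, under which 39.8% of all genes passed. Leaving out samples gave 0 to 2 receptors past adjusted p, 8 to 11 above and 2 to 3 below in every CTX sample (with 17.4% to 23.7% of all genes above and 17.5% to 25.1% below), 58 to 208 DEGs among all genes, and 1 to 3 other nuclear receptors, 0 to 2 retinoid genes, 1 to 4 glucocorticoid targets, 0 to 1 LXR targets and 0 to 1 PPAR targets past adjusted p. In these fits 0.484% to 3.65% of all genes passed adjusted p. With a mean of at least 5 FPKM, 10 receptors were tested and the median log2 fold change was 0.31. Of them 6 lay above and 0 below in every CTX sample, beside 17.9% and 14.5% of all genes. Quantile normalization left 7 above and 1 below, beside 14.8% and 15.3% of all genes. With no filter all 32 were tested, 0 passed adjusted p, beside 0.672% of all genes, and the median was 0.02. In every CTX sample 8 lay above and 3 below (*Rarb* added), beside 9.62% and 9.42% of all genes. An unadjusted p under 0.05 was reached by 7, for which the share of all genes was not taken. The glucocorticoid targets past adjusted p numbered 1 with a pseudocount of 0.01, with no filter, with quantile normalization and with voom, beside 0.672% to 1.92% of all genes. With arrayWeights there were 657 DEGs, and 1 coactivator, 3 corepressors, 8 other nuclear receptors, 5 retinoid genes, 7 glucocorticoid targets, 7 LXR targets and 5 PPAR targets passed. The causes of these differences were not tested. The 9 receptors left out of the reported test had 0 to 32 reads per sample, which limits what they can show.

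With the replicate number as a block, 0 receptors, 1 other nuclear receptor (*Nr4a1*), 1 glucocorticoid target (*Klf9*) and 0 PPAR targets passed, with 50 DEGs among all genes against 139 without it. Past adjusted p were 0.366% of all genes with the block and 1.76% without it. The samples share only a number, and the correlations of differently numbered samples were −0.0756 to 0.0593.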
